A study of Mus musculus with 6 samples.

Results

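The clock output transcription factors examined here are Dbp, Tef, Hlf, Nfil3, Bhlhe40, Bhlhe41 and Nr1d2. These 7 genes were taken by symbol from the 55359 genes of the deposited table, and each symbol matched 1 row. RNA sequencing measured them in total RNA of the habenula, a paired epithalamic nucleus beside the third ventricle. The tissue came from C57BL/6 mice at 2 months of age, in 3 wild-type (WT) libraries and 3 libraries labelled Tet2 cKO, a conditional knockout of the DNA dioxygenase gene Tet2. The sources used here do not give the driver of the deletion, the exons removed, the sex of the mice, the lighting schedule or the time of day at which tissue was taken. They also do not say whether each library came from a separate mouse, so p-values measure only the spread between these libraries.

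These genes carry timing from the circadian clock to other genes. DBP, TEF and HLF form the PAR bZIP family and activate transcription from a DNA element called the D-box, which NFIL3 binds as a repressor. BHLHE40 and BHLHE41 bind E-box elements and oppose the activators CLOCK and BMAL1 there, and the nuclear receptor REV-ERB beta, the product of Nr1d2, represses genes through response elements that it shares with the ROR receptors. In the brain, mice without PAR bZIP proteins are prone to seizures, and the habenula is among the regions outside the suprachiasmatic nucleus in which clock gene rhythms have been recorded.

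Letters that match response elements occur in some of the members' promoter windows. RefSeq promoter windows (GRCm38.p6) were matched for 6 of the 7 members, with 7 windows in all since Tef has a pair of starts. Bhlhe40 had none in the table. The 250 bases before each start were searched on both strands for the E-box CACGTG, the D-box TTATGTAA or TTACGTAA, the nuclear receptor half-site AGGTCA and the cyclic AMP response element TGACGTCA. The motifs do not overlap one another. Both Tef windows and the Bhlhe41 window held a CACGTG, a motif found in 6.02% of 32851 windows of the same length. The match in the first Tef window lies within an annotated exon. The Nr1d2 and Nfil3 windows held an AGGTCA (14.0% of windows), the latter on the opposite strand and within an annotated exon. The Hlf window held a TGACGTCA (1.55% of windows). None of the 7 windows held the D-box (0.931% of windows), and the Dbp window held none of the motifs. A match describes these letters only, not the bases beside them, and no factor binding was measured.

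The 4 stretches below hold a motif outside annotated exons of the member. Those of Tef and Bhlhe41 are shown for the E-box, which the E-box repressors are known to bind. That of Nr1d2 is shown for the half-site found in elements of the REV-ERB and ROR receptors. That of Hlf is shown for letters that CREB is known to bind. The Tef stretch lies inside the gene, between exons. Each is written 5′ to 3′ on the strand of its gene, without bases that GENCODE release M21 places in an exon of that gene, and capitals mark the motif.
Tef, second start, chr15:81811164-81811413, plus strand: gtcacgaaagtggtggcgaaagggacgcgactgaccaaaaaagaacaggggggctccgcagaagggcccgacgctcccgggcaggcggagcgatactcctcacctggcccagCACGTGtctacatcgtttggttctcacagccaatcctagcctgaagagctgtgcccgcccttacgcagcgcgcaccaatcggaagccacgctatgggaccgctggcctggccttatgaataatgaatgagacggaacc
Bhlhe41, chr6:145865559-145865670, minus strand: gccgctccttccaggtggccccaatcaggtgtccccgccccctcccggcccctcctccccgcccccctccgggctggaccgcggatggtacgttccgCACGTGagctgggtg
Nr1d2, chr14:18239128-18239356, minus strand: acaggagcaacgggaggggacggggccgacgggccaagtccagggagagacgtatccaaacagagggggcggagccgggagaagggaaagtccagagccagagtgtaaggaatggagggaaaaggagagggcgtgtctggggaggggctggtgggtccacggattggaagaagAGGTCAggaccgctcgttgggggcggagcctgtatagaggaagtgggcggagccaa
Hlf, chr11:90390918-90391167, minus strand: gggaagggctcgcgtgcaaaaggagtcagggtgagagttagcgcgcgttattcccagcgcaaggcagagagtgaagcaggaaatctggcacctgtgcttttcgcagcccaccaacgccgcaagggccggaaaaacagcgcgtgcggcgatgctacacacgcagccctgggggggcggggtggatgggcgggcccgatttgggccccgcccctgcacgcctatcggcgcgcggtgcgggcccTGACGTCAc
The CACGTG of Tef begins 138 bases before its second start and that of Bhlhe41 153 bases before its start. The AGGTCA of Nr1d2 begins 77 bases before the start, and the TGACGTCA of Hlf begins 9 bases before it.

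Library totals lay between 16089676 and 17917987 counts. All 10 habenula neuron markers were above the test's minimum level, with sums of 698 to 718 FPKM (fragments scaled to exon length and to the library's total) in WT against 637 to 722 FPKM. Of these, 5 were higher and 5 lower under the Tet2 cKO label, and 9 of 10 were lower without WT replicate 3. The sums were carried by Calb2 and Gap43, and 7 of the 10 markers were lowest in WT replicate 3. The transcript of Tet2 itself was higher under the knockout label, at 3.45, 3.46 and 3.71 FPKM in WT against 4.47, 4.02 and 3.96 FPKM. Its log2 difference was 0.22 (95% interval 0.05 to 0.39), with an unadjusted p of 0.0174 and an adjusted p of 0.9999 by edgeR. Whole-gene counts include reads of any exon left in place, so every difference below belongs to the label and not to a shown loss of Tet2. WT replicate 3 and, by less, Tet2 cKO replicate 1 stood apart. For WT replicate 3 the chi-square per gene was 19.3 and 20.5 against WT replicates 1 and 2, 10.5 against Tet2 cKO replicate 1 and 19.2 and 19.5 against the other 2 labelled libraries, where WT replicates 1 and 2 gave 4.13 against each other. For Tet2 cKO replicate 1 it was 8.65 and 9.38 against WT replicates 1 and 2 and 10.5 and 9.57 against Tet2 cKO replicates 2 and 3, which gave 4.76 against each other. No pair of libraries agreed within sampling noise.

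All 7 members were detected in every habenula library, most of them at high levels. On the FPKM scale, which allows genes to be compared, the order of mean levels over the 6 libraries was Hlf (46.7), Nr1d2 (41.2), Tef (34.4), Dbp (28.0), Bhlhe40 (20.0), Bhlhe41 (10.1) and Nfil3 (4.38). Of the 14539 tested genes, 94.0% had a lower mean than Hlf, 82.7% than Bhlhe40, 65.4% than Bhlhe41 and 38.2% than Nfil3. Each gene lay above the next in all 6 libraries, except that Dbp lay above Bhlhe40 in 5 of 6, the exception being WT replicate 3. The transcripts of the D-box activators thus exceeded that of the D-box repressor in every library. Summed, they came to 109, 108 and 89.6 FPKM in WT libraries and to 112, 121 and 115 FPKM in those labelled Tet2 cKO, 13.8 to 34.2 times that of Nfil3.

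**Figure D1:**
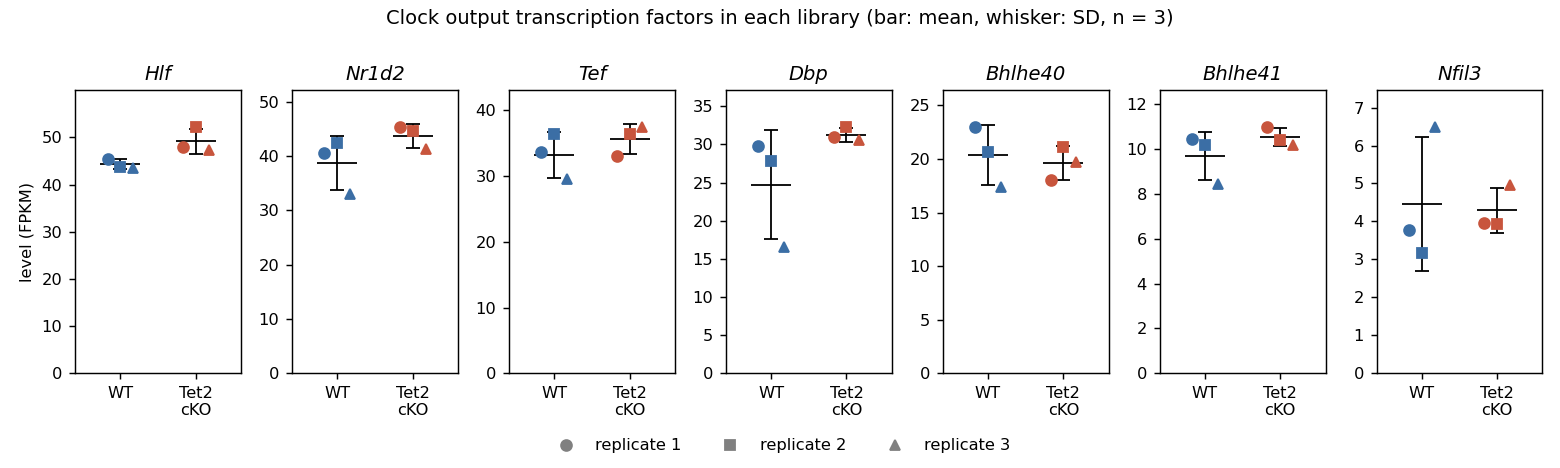
Level of each clock output gene in FPKM (vertical axis, from 0, own scale per gene) in the 3 WT libraries (blue) and the 3 libraries labelled Tet2 cKO (red). Symbols give the replicate, horizontal bars the mean and whiskers the SD (n = 3). WT replicate 3 (blue triangle) is the lowest library for every gene but Nfil3, where it is the highest at 6.48 FPKM.

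No member passed the test between genotypes, and each 95% interval of the difference included 0. By edgeR's quasi-likelihood test 0 of 7 members had a Benjamini-Hochberg adjusted p under 0.05, where the share called among all tested genes was also 0%. At an unadjusted p under 0.05 it gave 0 members against 2.57% of all genes. DESeq2 called 0 members as well, against 0.0275% of all genes, and gave 1 member, Dbp, an unadjusted p under 0.05, against 1.81%. With limma on log2(FPKM + 1) 0 members were called, against 0% of all genes, and 1, Hlf, had an unadjusted p under 0.05, against 3.02%. The intervals of 5 members lay within a 1.5-fold change in either direction, and those of all 7 within a 2-fold change. Of the 7 log2 differences, 5 were positive, with a median of 0.11 against a median of -0.0021 and a share of 49.1% positive over all genes. The libraries of the groups did not overlap for Dbp and Hlf, both higher under the Tet2 cKO label, where 7.07% of all genes did not overlap, 3% being higher and 4.07% lower. Without WT replicate 3 the median of the members was 0.08, again with 0 of 7 called, against 0.0206% of all genes, and with 0 of 7 at an unadjusted p under 0.05, against 5.95%. Then 3 of 7, Dbp, Hlf and Nfil3, were higher without overlap, against 11.7% of all genes. Without Tet2 cKO replicate 1 the log2 differences of Dbp, Tef, Hlf, Bhlhe41 and Nr1d2 were 0.34, 0.15, 0.16, 0.09 and 0.14.

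Among the PAR bZIP activators, Dbp, the founding member of the family, had the largest difference with all 6 libraries, while without WT replicate 3 that of Hlf was larger. Dbp (ENSMUSG00000059824, plus strand of chromosome 7, 45705088 to 45710203 on GRCm38) measured 29.84, 27.87 and 16.51 FPKM in WT libraries and 30.98, 32.24 and 30.53 FPKM in those labelled Tet2 cKO. The 3 labelled libraries all lay above the WT libraries, but 2 of the WT libraries came close to them and WT replicate 3 lay far below. The means were 24.7 ± 7.20 and 31.2 ± 0.886 FPKM (SD, n = 3 each). The log2 difference was 0.33 (SE 0.178, 95% interval -0.07 to 0.73), or 1.26-fold, with an unadjusted p of 0.0940 and an adjusted p of 0.9999 by edgeR. With 3 libraries against 3 an exact permutation test (two-sided) cannot go below 0.1, which is the p it gave. Without WT replicate 3 the log2 difference was 0.12 (SE 0.0723, 95% interval -0.04 to 0.27). Leaving out each of the other libraries in turn gave 0.31 to 0.49, the highest without WT replicate 1.

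Hlf, the most abundant of the family here, had the smallest unadjusted p of the members. Hlf (ENSMUSG00000003949, minus strand of chromosome 11, 90336536 to 90390895) measured 45.51, 43.78 and 43.56 FPKM in WT libraries and 48.03, 52.15 and 47.33 FPKM in those labelled Tet2 cKO. The 3 labelled libraries lay above the 3 WT libraries. The gap, from 45.51 to 47.33 FPKM, was smaller than the spread within the labelled group, from 47.33 to 52.15 FPKM. Means were 49.2 ± 2.60 FPKM in the labelled libraries and 44.3 ± 1.07 FPKM in WT libraries (SD, n = 3 each). The log2 difference was 0.14 (SE 0.0682, 95% interval -0.01 to 0.30), or 1.10-fold, with an unadjusted p of 0.0630 and an adjusted p of 0.9999 by edgeR. The log2 difference without WT replicate 3 was also 0.14, and leaving out Tet2 cKO replicate 2, the highest library, gave 0.10.

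Tef (ENSMUSG00000022389, plus strand of chromosome 15, 81802421 to 81826863), named for its expression in the embryonic pituitary, stood at 33.58, 36.42 and 29.49 FPKM in WT. In the libraries labelled Tet2 cKO it measured 33.00, 36.41 and 37.38 FPKM, so the groups overlapped, 2 WT libraries lying above the lowest labelled one. Mean levels were 33.2 ± 3.48 and 35.6 ± 2.30 FPKM (SD, n = 3 each). The log2 difference was 0.09 (SE 0.0883, 95% interval -0.10 to 0.29). It was 0.03 without WT replicate 3, 0.16 without WT replicate 2, 0.15 without Tet2 cKO replicate 1 and 0.06 without Tet2 cKO replicate 3.

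Nfil3, the repressor that competes for the D-box, varied more between libraries than between genotypes. Nfil3 (ENSMUSG00000056749, minus strand of chromosome 13, 52967209 to 52981073) measured 3.77, 3.16 and 6.48 FPKM in WT libraries and 3.96, 3.94 and 4.97 FPKM in those labelled Tet2 cKO. The WT group held both the lowest and the highest of the 6 libraries, with means of 4.47 ± 1.77 and 4.29 ± 0.589 FPKM (SD, n = 3 each). The log2 difference was -0.07 (SE 0.248, 95% interval -0.63 to 0.48), and its direction depended on WT replicate 3. Without that library every labelled library lay above the remaining WT libraries and the difference was 0.31 on the log2 scale (SE 0.173), with an unadjusted p of 0.0995 and an adjusted p of 0.869 by edgeR. Leaving out WT replicates 1 and 2 gave -0.18 and -0.27, and leaving out Tet2 cKO replicates 1, 2 and 3 gave -0.015, -0.015 and -0.19. With 103 to 233 counts per library, Nfil3 was also the member with the fewest reads.

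The E-box repressors Bhlhe40 and Bhlhe41, which lie apart on chromosome 6, had differences of opposite sign and neither passed. Bhlhe40 (ENSMUSG00000030103, plus strand, 108660629 to 108666925), which neuronal activity can also induce, stood at 22.95, 20.67 and 17.39 FPKM in WT libraries and 18.01, 21.15 and 19.73 FPKM in those labelled Tet2 cKO. The labelled libraries lay within the WT range, with means of 20.3 ± 2.79 and 19.6 ± 1.57 FPKM (SD, n = 3 each). Its log2 difference was -0.06 (SE 0.108, 95% interval -0.30 to 0.18). It was -0.15 without WT replicate 3, 0.04 without WT replicate 1, 0.0032 without Tet2 cKO replicate 1 and -0.12 without Tet2 cKO replicate 2. Bhlhe41 (ENSMUSG00000030256, minus strand, 145858243 to 145865558), whose product acts on sleep length in mammals, stood at 10.43, 10.16 and 8.45 FPKM in WT libraries and 10.96, 10.41 and 10.19 FPKM in those labelled Tet2 cKO. Apart from WT replicate 3 the 5 libraries were close together, and the means were 9.68 ± 1.07 and 10.5 ± 0.397 FPKM (SD, n = 3 each). Its log2 difference was 0.11 (SE 0.0902, 95% interval -0.09 to 0.31), 0.03 without WT replicate 3 and 0.17 without WT replicate 1.

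Nr1d2 (ENSMUSG00000021775, minus strand of chromosome 14, 18204054 to 18239127) measured 40.58, 42.49 and 33.09 FPKM in WT libraries and 45.29, 44.52 and 41.25 FPKM in those labelled Tet2 cKO. Tet2 cKO replicate 3 lay below WT replicate 2, so the groups overlapped, and WT replicate 3 was again the lowest. Mean levels were 38.7 ± 4.97 and 43.7 ± 2.15 FPKM (SD, n = 3 each). The log2 difference was 0.17 (SE 0.0945, 95% interval -0.04 to 0.38), or 1.12-fold, with an unadjusted p of 0.110 by edgeR. Without WT replicate 3 it was 0.08 (SE 0.0655). The related REV-ERB gene Nr1d1 stood at 31.57, 30.40 and 17.62 FPKM in WT libraries and 28.56, 32.54 and 31.10 FPKM in those labelled Tet2 cKO. The ratio of Nr1d2 to Nr1d1 was 1.29, 1.40 and 1.88 in WT libraries against 1.59, 1.37 and 1.33, so that WT replicate 3 had the highest share of Nr1d2.

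**Figure D2:**
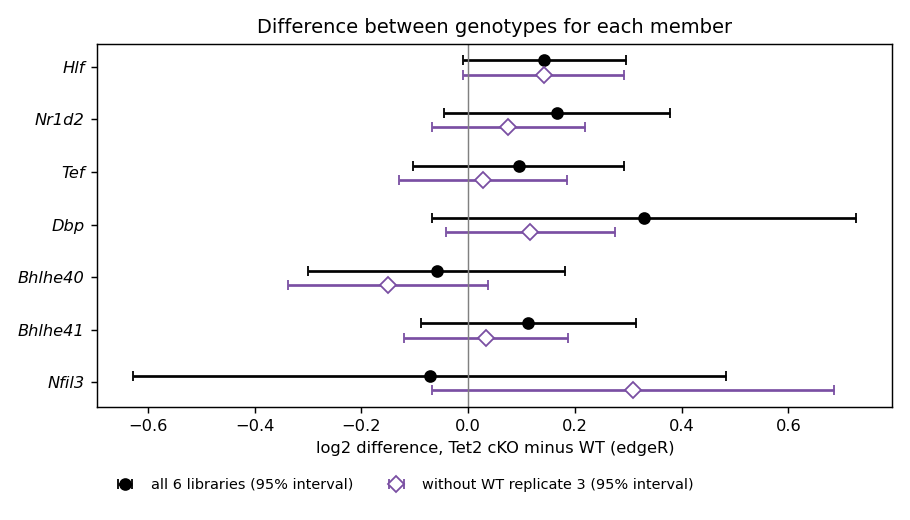
Log2 difference of each clock output gene between libraries labelled Tet2 cKO and WT libraries (horizontal axis, edgeR), with all 6 libraries (black circles) and without WT replicate 3 (open diamonds). Whiskers are 95% intervals, and all of them cross 0. The estimate for Dbp is 0.33 with all libraries and 0.12 without WT replicate 3, and that for Nfil3 is -0.07 and 0.31.

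Exons of 4 members share bases with a gene on the opposite strand, and without a stated strand setting the reads of these cannot be told apart. Dbp shares 539 exon bases with Sphk2, Bhlhe41 1280 with Gm43909, Tef 193 with Gm17597 and Bhlhe40 118 with 0610040F04Rik. Sphk2 stood at 4.21 to 5.16 FPKM with its highest value in WT replicate 3, where Dbp was lowest. Gm43909 stood at 2.01 to 2.65 FPKM in WT libraries and 2.33 to 3.21 FPKM in those labelled Tet2 cKO. Gm17597 stood between 1.05 and 2.07 FPKM over the 6 libraries, and 0610040F04Rik was below 1 FPKM in each.

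Among the WT libraries, replicate 3 had low Dbp and high Nfil3. On the FPKM scale WT replicate 3 was the lowest of the 6 libraries for 6 of 7 members, and for 29.1% of all tested genes. With TMM scaling it was the lowest for 5 of 7, since WT replicate 2 was then slightly lower for Hlf, and for 27.3% of all tested genes. Dbp in WT replicate 3 was 0.572 times the mean of WT replicates 1 and 2, a ratio as low in 3.47% of tested genes. Nfil3 was 1.87 times that mean, a ratio as high as or above that of 99.0% of tested genes. Nr1d2, Bhlhe40, Bhlhe41 and Tef were at 0.797, 0.797, 0.821 and 0.843 times it and Hlf at 0.976, where the median of all tested genes was 0.990. Markers of habenula neurons stood low in the same library, at 0.415 times that mean for Nwd2, 0.420 for Chat, 0.479 for Chrnb4, 0.495 for Pou4f1, 0.531 for Gpr151, 0.612 for Chrna3 and 0.645 for Tac2, while Tac1, Calb2 and Gap43 were at 1.05 to 1.33. Their part in the members' values was not tested. These ratios describe 1 library and have no test.

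The exact Poisson 95% interval of Dbp in WT replicate 3 was 15.4 to 17.6 FPKM, and the lowest bound among the other 5 libraries was 26.4 FPKM. For Nfil3 in WT replicate 3 the interval was 5.68 to 7.37 FPKM, which reached the interval of Tet2 cKO replicate 3 (4.27 to 5.75 FPKM) and no other. Such intervals cover counting error only.

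Ratios between members within a library do not depend on library scaling. Dbp to Nfil3 was 7.92, 8.82 and 2.55 in WT libraries and 7.82, 8.18 and 6.14 in the labelled ones. Since Dbp was lowest and Nfil3 highest in WT replicate 3, their ratio had to be lowest there and is no separate observation. Dbp to Hlf, a ratio within the PAR bZIP family, was 0.656, 0.637 and 0.379 in WT libraries against 0.645, 0.618 and 0.645. Dbp thus made up 18.4% of the family's summed level in WT replicate 3 and 25.8% to 27.7% in the other 5 libraries, while Tef kept to between 29.5% and 33.7% in all 6. Bhlhe40 to Bhlhe41 was 2.20, 2.03 and 2.06 in WT, with no such gap, and 1.64, 2.03 and 1.94 under the label.

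**Figure D3:**
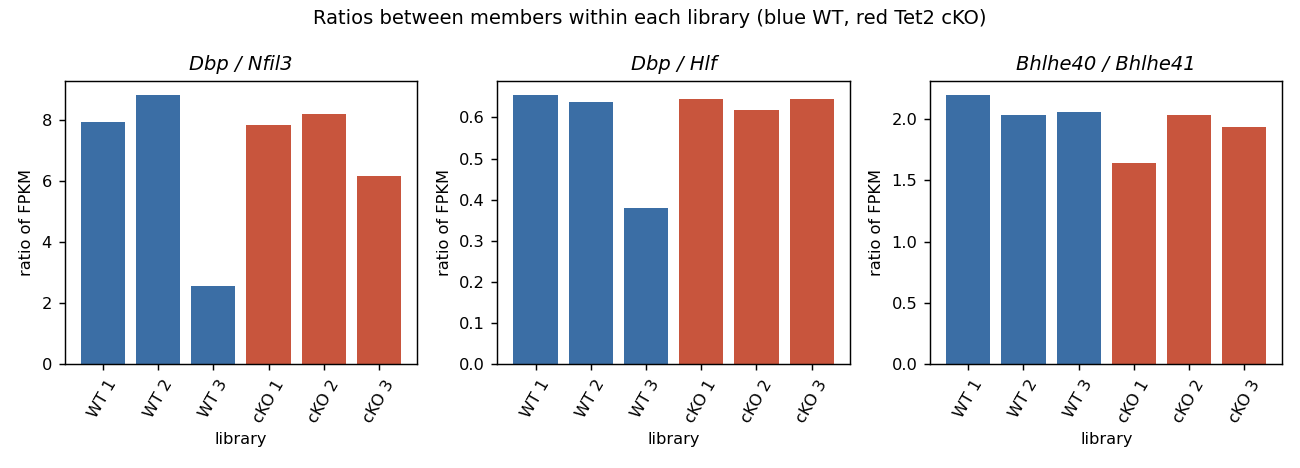
Ratio of FPKM (vertical axis, from 0) between pairs of members in each library, WT in blue and Tet2 cKO in red. Bars are single libraries, so they have no error bar. Dbp to Nfil3 and Dbp to Hlf are lowest in WT replicate 3, at 2.55 and 0.379, whereas Bhlhe40 to Bhlhe41 is lowest in Tet2 cKO replicate 1, at 1.64.

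The genes with profiles most like Dbp over the 6 libraries included other clock genes. Likeness was the root mean square difference between log2 CPM (counts scaled to library size), each gene centred on its own mean, over 6 libraries. The 5 nearest named genes to Dbp among all tested were Fkbp10, Nr1d1, Egr1, Polr3e and Per1, at 0.07, 0.08, 0.09, 0.10 and 0.10, where a flat profile would be at 0.33. Nr1d1, which encodes REV-ERB alpha, was ranked 3 and Per1, which encodes a core clock repressor, 7. Among the members, Nr1d2 was the nearest to Dbp (0.20), ranked only 276, and Nfil3 the farthest (0.62), ranked 13817. For Nr1d2 the 5 nearest were Cpne8, Dcaf17, Pllp, Eif2b3 and Ncan, at 0.02 to 0.04 where a flat profile would be at 0.15, and Bhlhe41 was ranked 26 at 0.05. For Bhlhe40 the 4 nearest were Atg7, Esyt1, Strn3 and Cyfip1, at 0.03 to 0.04 where a flat profile would be at 0.14. The profiles are a description. That of Dbp was -0.72 in WT replicate 3 and 0.02 to 0.24 in the other 5 libraries.

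Of 20 core clock genes, none passed by edgeR, with 13 higher and 7 lower under the Tet2 cKO label and a median log2 difference of 0.03. Without WT replicate 3, 10 were higher and 10 lower. At an unadjusted p under 0.05 there were 2 higher, against 0.894% of all genes, and 1 lower, where 2.57% of all genes had such a p in either direction. The groups did not overlap for 2 higher and 2 lower genes, against 3% and 4.07% of all genes. Npas2, which encodes a partner of BMAL1, stood at 4.57, 3.90 and 4.28 FPKM in WT libraries and 3.33, 3.67 and 3.07 FPKM in the labelled ones, with the groups apart. Ciart, a repressor of CLOCK and BMAL1, stood at 10.02, 11.57 and 6.43 FPKM in WT libraries and 13.90, 14.17 and 12.89 FPKM in the labelled ones, also apart. Its log2 difference was 0.54 (SE 0.176), and 0.34 without WT replicate 3. Ciart passed in edgeR's fit without a filter on low values, with an adjusted p of 0.0154. The period genes Per2 and Per1 had log2 differences of 0.20 (SE 0.0881) and 0.31 (SE 0.149), which were 0.25 and 0.15 without WT replicate 3.

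Several core clock genes stood low in WT replicate 3 as Dbp did. Of the 20, 6 were below 0.75 times the mean of WT replicates 1 and 2 in that library, against 10.6% of all tested genes, the limit of 0.75, and so the genes named by it, being chosen after the values were seen. They were Nr1d1 (0.569), Ciart (0.596), Fbxl21 (0.617), Per1 (0.653), Per3 (0.674) and Rora (0.730). By the same limit the share was 14.3% of the members, 1 of 7, which was Dbp. It was 11.1% of the other clock-controlled genes, 1 of 9, so both shares were near that of all tested genes. Arntl, which encodes BMAL1 and is normally repressed by the REV-ERB proteins, was at 1.36 times that mean and was likewise named after its values were seen. It stood at 4.03, 3.36 and 5.03 FPKM in WT libraries and 4.08, 3.46 and 3.68 FPKM in those labelled Tet2 cKO. The ratio of Dbp to Arntl was 7.40, 8.29 and 3.28 in WT libraries and 7.59, 9.32 and 8.30 in the labelled ones. The median ratio of WT replicate 3 to the mean of WT replicates 1 and 2 was 0.919 for the 20 genes. For all tested genes it was 0.990. Clock (0.921), Npas2 (1.01), Per2 (1.08) and Cry1 (1.16), also named after their values were seen, were not low as the 6 above were. The cause of these values was not tested.

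**Figure D4:**
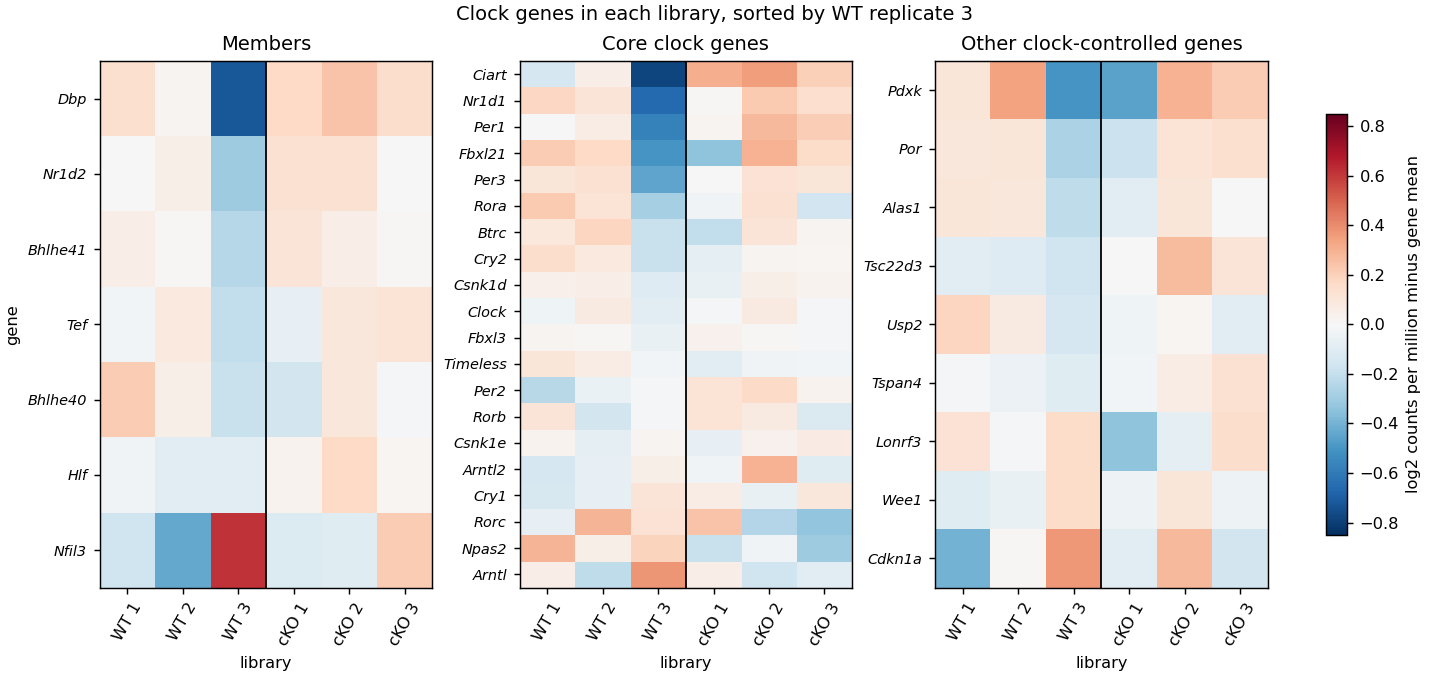
Log2 CPM minus the gene's mean over 6 libraries (colour) for the 7 members, 20 core clock genes and 9 other clock-controlled genes (rows, sorted by WT replicate 3) in each library (columns). Dbp at -0.72 and Nfil3 at 0.61 mark the ends of the members in WT replicate 3, and no other library is as far from the mean for a member.

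Other genes downstream of the clock did not pass the test between genotypes either. All 9 listed clock-controlled genes were tested, 6 higher and 3 lower with a median log2 difference of 0.0061, and 0 passed by edgeR. Without WT replicate 3, 4 were higher and 5 lower, with a median of -0.06. One, Tsc22d3, had an unadjusted p under 0.05 and was higher, against 0.894% of all genes higher at that level and 2.57% in either direction. Tsc22d3, a leucine zipper gene that glucocorticoids induce, stood at 28.03, 28.02 and 26.74 FPKM in WT libraries and 30.38, 36.20 and 32.72 FPKM in those labelled Tet2 cKO, a log2 difference of 0.25 (SE 0.0806). Tspan4, Lonrf3 and the deubiquitinase gene Usp2 had log2 differences of 0.11, -0.16 and -0.08. Pdxk, the pyridoxal kinase gene that PAR bZIP proteins activate in brain, was named after its values were seen. It stood at 14.50, 17.29 and 9.52 FPKM in WT libraries and 10, 16.56 and 15.89 FPKM in the labelled ones, low in WT replicate 3 as Dbp was but also in Tet2 cKO replicate 1, where Dbp was not.

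Relatives of the members outside the clock did not pass either. Of 6 C/EBP genes, whose bZIP proteins are kin to the PAR family, 4 were tested, with 1 higher, 3 lower and 0 called by edgeR. Cebpb, Cebpa, Ddit3 and Cebpg had log2 differences of 0.47 (SE 0.225), -0.28, -0.11 and -0.02, and without WT replicate 3 that of Ddit3 was 0.16. Of 10 Hes and Hey genes, which share the Orange domain with Bhlhe40 and Bhlhe41 and act downstream of Notch, 6 were tested, with 1 higher, 5 lower and 0 called. Hes5 had the smallest p among them, at 4.67, 5.38 and 6.33 FPKM in WT libraries and 3.91, 1.88 and 3.32 FPKM in those labelled Tet2 cKO, a log2 difference of -0.86 (SE 0.249) with an unadjusted p of 0.00668 and an adjusted p of 0.9999. Hes1, Hey2 and Hey1 had log2 differences of -0.35, -0.18 and 0.04.

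Markers of other cell types stood higher or lower between the groups or in WT replicate 3, and their part in the members' values was not tested. None of these markers passed in the main edgeR test, where their smallest adjusted p was 0.739, for the choroid plexus marker Calml4. All 5 tested of 8 GABAergic neuron markers were lower under the Tet2 cKO label, and 4 of those 5 were higher without WT replicate 3. The summed level of the 8 GABAergic neuron markers was 34.9, 42.2 and 59.3 FPKM in WT, highest in replicate 3, and 34.2 to 52.5 FPKM in those labelled Tet2 cKO. That of 8 astrocyte markers was 306 to 342 FPKM in WT, lowest in replicate 3, and 354 to 375 FPKM in the labelled ones, 7 of 8 being higher. All 10 choroid plexus markers were lower under the label, with sums of 449 to 1403 FPKM in WT libraries and 170 to 824 FPKM in the labelled ones. These sums were carried by Ttr, at 430 to 1347 FPKM in WT libraries and 158 to 799 FPKM in the labelled ones. All 7 tested of 8 ependymal markers were also lower, with sums of 57.5 to 72.0 FPKM in WT libraries and 43.0 to 52.2 FPKM. Of 8 pineal gland markers 1 was tested, Gngt1 was at 0 in every library, and the sum did not exceed 6.04 FPKM. Of 14 activity-induced immediate early genes 11 were tested and 8 of those were higher under the label, with a sum of 77.9 FPKM in WT replicate 3, the lowest library, and 103, 110 and 113 FPKM in the labelled libraries. All 8 oligodendrocyte markers were higher by a median log2 difference of 0.08. In bulk tissue, fewer cells that express a member and less of its RNA per cell cannot be told apart.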

How the data were processed

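The deposited table holds counts per Ensembl gene, which are whole numbers, and FPKM values that the authors made from them, per the file headers. Each FPKM equals the count divided by exonic size and library total, within 0.005. FastQC 0.10.1, cutadapt 1.9.1, HISAT2 2.0.1, SAMtools 0.1.19 and build mm10 are named in the submitters' processing notes. Which read counter, annotation or strand setting was used was not stated in any of them or in the labels. The table's coordinates differ from GRCm38, so positions are those of GENCODE M21, joined by gene symbol.

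Counts were tested with edgeR 4.0.16 in R 4.3.3 (quasi-likelihood, TMM, two-sided, libraries labelled Tet2 cKO minus WT, no covariate) for the 14539 genes that averaged 1 FPKM or more, with Benjamini-Hochberg adjustment over all of them and a threshold of 0.05. The common biological coefficient of variation was 10.4%. Alternatives were DESeq2 1.42.0, limma 3.58.1, other scalings and filters, a replicate block and leaving out each library. The method was tested on simulated counts. Groups and replicates follow the sample titles.

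The members and lists were chosen with earlier results of these data known. The text names all members, up to 4 genes per related list by smallest unadjusted p, and the 5 genes nearest in profile to Dbp, Nr1d2 and Bhlhe40, leaving out predicted genes and clones. One gene that the rule names is not reported here. Protein sequences were not used here.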

Additional observations from a re-analysis of the deposited data

How the results depend on the processing

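No member was called under any of the 15 alternatives, and the median of the members stayed positive, from 0.075 to 0.17. The signs of Dbp, Tef, Hlf, Bhlhe41 and Nr1d2 held in each. Nfil3 turned positive with limma on log2(FPKM + 0.1) (0.00084), with limma-voom and sample weights (0.25) and without WT replicate 3 (0.31), its range over the left-out libraries being -0.27 to 0.31, and it was not tested at a minimum of 5 FPKM. Bhlhe40 ranged from -0.15 to 0.040 when leaving out each library, positive without WT replicate 1 (0.040) and when Tet2 cKO replicate 1 was left out (0.0032). The cause was not tested. Sample weights also gave 0.16 for Dbp, 0.08 for Nr1d2 and 0.03 for Bhlhe41. The number of all genes called was 0 in the main test, 4 by DESeq2, 2 by limma-voom with sample weights and 49 without a filter on low values, where 1 core clock gene, Ciart, was among them (adjusted p = 0.0154), and 0 to 3 when leaving out each library.

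Same-numbered libraries correlated at 0.0017, 0.0975 and -0.0961 in their deviations from the group means, and differently numbered ones at -0.139 to 0.118. With 3 libraries per group, such values cannot decide whether replicate numbers pair the libraries. With the replicate block 0 of 7 members and 0 genes in all were called, and the log2 difference of Dbp was 0.37. By edgeR, Dbp had an unadjusted p under 0.05 with the replicate block (0.0363), without a filter (0.00152) and without WT replicate 1 (0.0250). Nr1d2 did so without a filter (0.0447) and without WT replicate 2 (0.0464), and Hlf by limma on log2(FPKM + 0.1) (0.0470). Shares of all genes at that level are not given for these settings, so these p-values have no background to be set against. Without a filter, where 49 genes in all were called, the adjusted p of Dbp was 0.328 by edgeR. Depth limits Nfil3 most, at a mean of 155 counts.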
